A study of Mus musculus with 24 samples.

Results

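Genes that were lower without Smarcc2 both at rest and after depolarization were examined in cultured mouse cortical neurons. Of 11098 protein-coding genes that averaged at least 5 CPM (read counts scaled to library size) over the 4 control libraries, the 150 were taken whose drop was deepest in the state where it was shallower, and Smarcc2 itself was removed, which left 149. For each state the drop was r, the log2 ratio of mean CPM + 1 in knockout cultures with vector to mean CPM + 1 in control cultures, and genes were ranked by the larger of their r values at rest and under KCl. CPM here is scaled to the counts that a library had in protein-coding genes. The genes were thus chosen by the measured difference between knockout with vector and control, which is given as a description and not as a finding.

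All cultures came from cortex of mouse embryos at embryonic day 16.5, were analysed after 7 or 18 days in vitro (DIV7, DIV18), and had been silenced overnight with 1 µM tetrodotoxin, a blocker of voltage-gated sodium channels, and 100 µM D-AP5, a blocker of NMDA receptors. In the depolarized groups 50 mM KCl was added for the last 30 min before harvest. At DIV18 the groups were a non-targeting guide (NT; 2 resting and 2 KCl libraries), Smarcc2 knockout (KO) by a CRISPR guide with vector (3 and 3), KO with wild-type Smarcc2 put back (WT; 2 and 3), KO with Smarcc2 carrying a serine changed to glutamate (S586E; 3 resting) and KO with the same serine changed to alanine (S586A; 2 KCl). The 4 DIV7 libraries (2 resting, 2 KCl) came from cultures labelled wild type, which carried no guide and are not the WT add-back, received 0.1% DMSO and were made from poly(A) RNA, whereas the DIV18 libraries were made from RNA depleted of ribosomal RNA. The knockout was made in a mixed culture rather than in a line, the labels do not say whether NT cultures carried a vector, and S586E was sequenced only at rest and S586A only under KCl. Per the labels' protocols the cortex of each embryo was taken as a replicate.

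Smarcc2 (also known as BAF170) is a core scaffold subunit of BAF complexes, which use ATP to slide and evict nucleosomes and so open regulatory DNA. Glutamate in place of serine is commonly used to imitate a phosphorylated residue, and alanine to prevent phosphorylation. Cultures of embryonic cortex consist mainly of neurons but also hold progenitors that give rise to astrocytes, which clear glutamate and potassium and couple through gap junctions, and to oligodendrocyte precursor cells (OPCs), which divide and depend on platelet-derived growth factor.

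The 149 genes included many known from glia. Of 27 kept genes on a list of astrocyte markers, 13 were members, among them Slc1a3, Mlc1, Hepacam and Gja1 (transport and junctions), Aldoc, Aldh1l1 and Apoe (metabolism and lipid transport), the receptors Ntsr2 and Gpr37l1, the coagulation factor receptor F3, the transcription factor Sox9, and Ndrg2. Of 12 kept OPC markers 4 were members (Pdgfra, Olig1, Olig2, Ptprz1), of 7 kept progenitor and radial glia markers 3 (Vim, Notch1, Emx2), of 4 kept proliferation genes 2 (Mki67, Top2a), and of 2 kept microglia markers 1 (Csf1r). None of the 12 neuronal markers, 10 kept interneuron markers, 28 BAF subunit genes, 16 kept early-response genes, 21 cholesterol synthesis genes or 38 kept glutamate and GABA receptor genes was a member. The BAF list holds Smarcc2 itself, which met the rule and was removed. Among larger families, 8 of 203 kept solute carriers, 7 of 55 growth factor pathway genes, 5 of 36 SOX, NFI and bHLH factors, 4 of 72 G-protein-coupled receptors, 4 of 64 extracellular matrix genes and 1 of 352 genes with a Zfp symbol were members. These counts describe the choice and were not tested. The other 126 members were on none of the lists for glia, progenitors or proliferation.

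The promoters of 3 astrocyte markers among the members are shown because each holds a short motif searched for in all members: the 250 bases before the RefSeq start (GRCm38.p6), 5′ to 3′ on the strand of the gene, with the motif in capitals. Gja1 (connexin 43, the main astrocyte gap junction protein; chr10:56377050-56377299, plus strand) holds an AP-1 motif, Slc1a3 (GLAST, a glutamate transporter; chr15:8710808-8711057, minus strand) a STAT motif, and Aldoc (aldolase C, a glycolytic enzyme; chr11:78322823-78323072, plus strand) an NFI half-site.
Gja1: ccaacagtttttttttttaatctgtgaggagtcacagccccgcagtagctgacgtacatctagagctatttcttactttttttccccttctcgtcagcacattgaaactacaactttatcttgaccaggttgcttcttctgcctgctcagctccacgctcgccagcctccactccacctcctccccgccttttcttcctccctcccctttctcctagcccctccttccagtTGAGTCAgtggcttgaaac
Slc1a3: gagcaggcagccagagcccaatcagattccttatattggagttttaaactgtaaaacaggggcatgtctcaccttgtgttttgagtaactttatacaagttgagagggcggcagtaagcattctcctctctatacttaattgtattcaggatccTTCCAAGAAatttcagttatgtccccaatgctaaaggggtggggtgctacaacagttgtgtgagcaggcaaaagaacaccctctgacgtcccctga
Aldoc: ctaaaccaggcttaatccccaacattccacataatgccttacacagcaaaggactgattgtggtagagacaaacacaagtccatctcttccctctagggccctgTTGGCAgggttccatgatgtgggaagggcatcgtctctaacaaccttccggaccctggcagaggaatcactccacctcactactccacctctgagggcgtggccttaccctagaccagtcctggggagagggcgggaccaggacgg
Of the members, 121 matched a RefSeq promoter, as did 8730 of the kept genes. Searched on both strands of these 250 bases, the AP-1 motif TGANTCA was found in 4.96% of member promoters and 3.51% of all, the STAT motif TTCNNNGAA in 7.44% and 5.33%, the SOX motif ACAAAG in 11.6% and 11.0%, and the SOX motif ACAATGG in 1.65% and 1.38%. The NFI half-site TTGGCA was found in 13.2% and 9.57%, the TEAD motif GGAATG in 14.9% and 10.0%, the full palindromic NFI motif (which shares its first letters with the half-site) in 0% and 0.0344%, and the SREBP motif TCACCCCAC in 0% and 0.516%. These shares describe letters in a window and carry no test.

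Each DIV18 library held between 14510199 and 24024959 estimated counts, and each DIV7 library between 24536056 and 30135576. Smarcc2 lay between 286 and 315 CPM in resting NT and at 327 CPM in both NT libraries under KCl, and averaged 65.6 ± 11.7 CPM (SD, n = 3) and 66.3 ± 9.45 CPM (SD, n = 3) in KO with vector at rest and under KCl. It was above the NT level in every add-back group, at 968 CPM with WT at rest (n = 2), 1137 ± 217 CPM with WT under KCl (SD, n = 3), 1447 ± 102 CPM with S586E (SD, n = 3) and 1607 CPM with S586A (n = 2), so the add-back groups differed in the level of Smarcc2 RNA as well as in the mutated serine. Neuronal markers were high throughout (summed 8165 to 9909 CPM over 12 genes at DIV18). The 15 oligodendrocyte markers summed to 128 to 194 CPM and the 14 microglial markers to 26.5 to 42.6 CPM at DIV18, with the defining microglial genes Tmem119 and Tyrobp at 0 in most libraries.

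Members did not vary independently between cultures. The median over the 149 genes, as log2(CPM + 1) relative to the mean of the 4 NT libraries, was 0.01 and 0.21 in resting NT, -0.24 and 0.08 in NT under KCl, -0.63, -0.70 and -1.59 in resting KO with vector, and -1.04, -0.85 and -1.11 in KO with vector under KCl. Replicate 3 of resting KO with vector stood apart: 122 of the 149 genes had their lowest value of the 3 resting vector libraries there, against 42.3% of all kept genes. Interneuron markers, none of them a member, were also low in libraries that stood apart: they summed to 620, 467 and 232 CPM in replicates 1, 2 and 3 of resting KO with vector, 427, 463 and 279 CPM in those of WT under KCl, and 397 and 279 CPM in those of S586A, and the part of this in the members' levels was not tested. In the libraries that took no part in the choice, replicate 3 of WT under KCl was lowest of its group for 128 members (43.4% of kept genes) and replicate 2 of S586A for 138 (60.4%). The medians of the add-back libraries were -0.40 and -0.48 for WT at rest, -0.61, -0.32 and -1.23 for WT under KCl, -0.69, -0.67 and -0.70 for S586E, and -0.47 and -0.97 for S586A.

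The 17 astrocyte markers that were not members summed to 2405 to 2665 CPM in resting NT, 1600 to 2272 CPM in resting KO with vector, 1737 to 2057 CPM with WT and 2050 to 2194 CPM with S586E at rest. Under KCl they summed to 2183 to 2950 CPM in NT, 1493 to 1637 CPM with vector, 1586 to 2135 CPM with WT and 1641 to 1933 CPM with S586A. At DIV18 a single gene, the glutamate transporter Slc1a2, made up 46.1% to 63.5% of these sums. The other 16 summed to 1112 to 1183 CPM in resting NT, 593 to 1175 CPM with vector, 908 to 1082 CPM with WT and 977 to 1073 CPM with S586E at rest. Under KCl the 16 summed to 917 to 1523 CPM in NT, 686 to 799 CPM with vector, 611 to 1150 CPM with WT and 825 to 972 CPM with S586A. Replicate 3 of resting KO with vector (593 CPM) and of WT under KCl (611 CPM) were the lowest DIV18 libraries in this sum as in the members' median. In the sum of all 17 they were not: they stood at 1600 and 1674 CPM, and replicate 1 of KO with vector under KCl was lowest (1493 CPM). Slc1a2 alone was at 1007 CPM in replicate 3 of resting KO with vector (901 to 1097 CPM in that group). In replicate 3 of WT under KCl it was at 1063 CPM, the highest of its group. Slc1a2 was set aside after its values were seen. Within the full list of 30 astrocyte markers, 8 were called lower in KO with vector at rest and 5 under KCl (29 and 30 of them below NT in sign, edgeR's quasi-likelihood test, adjusted p under 0.05), and the lists of OPC, progenitor and proliferation genes gave 6 of 18, 1 of 12 and 3 of 10 calls lower at rest and 5, 2 and 0 under KCl. Of all 20940 genes tested, 3.77% were called lower at rest and 1.95% under KCl. The 16 OPC markers that were not members summed to 522 to 552 CPM in resting NT and 487 to 524 CPM in resting KO with vector. With WT at rest they summed to 436 to 462 CPM and with S586E to 511 to 534 CPM. Under KCl these OPC markers summed to 437 to 539 CPM in NT, 444 to 482 CPM with vector, 428 to 473 CPM with WT and 401 to 448 CPM with S586A. In bulk RNA, fewer cells of a type and less RNA per cell cannot be told apart, and the part of glial content in the members' levels was not tested.

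**Figure D1:**
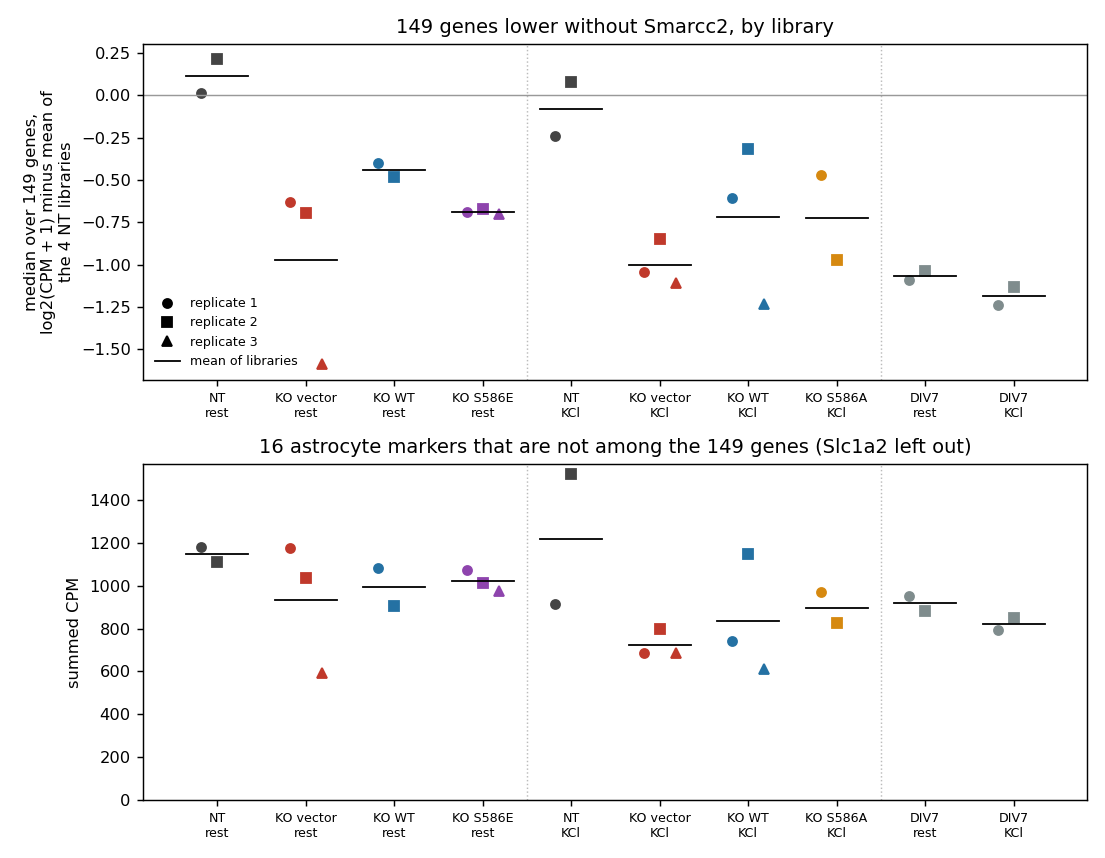
The upper panel plots, for each library, the median over the 149 genes of log2(CPM + 1) minus its mean over the 4 NT libraries, and the lower panel the summed CPM of 16 astrocyte markers that are not among them, with Slc1a2 left out. Symbols give the replicate number and bars the mean of the libraries. Replicate 3 of resting KO with vector (-1.59) and of WT under KCl (-1.23) lie lowest of the DIV18 libraries in both panels. With Slc1a2 included, replicate 1 of KO with vector under KCl had the lowest sum instead. S586E libraries lie below WT at rest in the upper panel and overlap them in the lower.

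Drops ranged widely. The median r was -0.98 at rest (-4.10 to -0.63) and -0.90 under KCl (-3.06 to -0.61). By the larger r, the deepest were Gm14288 (-2.37), Pdgfra (-2.32), Olig1 (-2.15), Mki67 (-1.70), Top2a (-1.65), Gpr37l1 (-1.41), Htra1 (-1.37), Icosl (-1.31), Tmem176b (-1.30) and Shisa8 (-1.30). Gm14288 belongs to a family of near-identical zinc finger genes, so its counts may be split between copies and are uncertain. Just inside the limit lay Stom (-0.618), Evc2 (-0.614) and Idh2 (-0.613), and just outside it Bmp7 (-0.613), Plekhg5 (-0.612) and Pdk4 (-0.606). In edgeR's fit, 79 members were called lower in KO with vector at rest (3.77% of all genes tested) and 55 under KCl (1.95%). Every vector library lay below every NT library for 143 members at rest (20.4% of kept genes) and 140 under KCl (14.2%). These calls and counts follow from the choice. Per transcript length, abundant members in resting NT cultures included Apoe (481 TPM, a level scaled to transcript length), Aldoc (114 TPM), Gstm1 (111 TPM), Igfbp2 (109 TPM) and Dbi (102 TPM), while the median member stood at 5.59 TPM.

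Return was measured for each member as the distance that an add-back covered from KO with vector (0%) towards NT (100%) in the same state, on log2(CPM + 1) of group means. Since unusually low vector libraries and high NT libraries helped choose the genes, some return would appear without any effect of the add-back, so return is a description and the same share of it enters every add-back of a state. With WT the median return was 43.5% at rest (middle 50% of genes, 33.1% to 54.8%) and 39.2% under KCl (30.8% to 47.3%). It was 18.1% with S586E at rest (6.64% to 36.8%) and 36.2% with S586A under KCl (19.5% to 45.4%). Members at or beyond 50% numbered 54 and 31 with WT, 23 with S586E and 28 with S586A, and those below 0% numbered 3, 4, 21 and 14.

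The returns rested on few libraries and did not pair them by replicate number. At rest they were 47.8% and 39.7% in the WT libraries and 19.5%, 18.9% and 18.2% in the S586E libraries, so the libraries of the groups did not overlap. Without replicate 3 of resting KO with vector the medians fell to 29.6% with WT and to -8.03% with S586E, that is, S586E cultures then lay at the level of the remaining vector cultures. Under KCl the WT libraries stood at 42.3%, 72.5% and -19.0% and the S586A libraries at 57.3% and 5.56%, so these groups overlapped. Without replicate 3 of WT under KCl the WT median was 59.6%, and without replicate 2 of WT it was 15.3%.

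Against KO with vector, no member was called in any add-back group (edgeR, adjusted p under 0.05), where 0.0143% of all genes tested were called with WT at rest, 0.00955% with WT under KCl, 0.0191% with S586E and 0.00955% with S586A. Unadjusted p was under 0.05 for 37, 33, 31 and 22 members in that order, and for 2316, 835, 1560 and 2730 of the 20940 genes tested. The fit with the replicate number as a block called 2 members with S586E (0.0669% of all genes tested), among them Evc2 (just inside the limit of the choice). DESeq2 called 2 with WT at rest (0.85% of all genes tested), 0 with WT under KCl (0.0287%), 6 with S586E (0.248%) and 2 with S586A (1.03%). The median log2 fold change of the members was 0.48 and 0.40 with WT at rest and under KCl, 0.26 with S586E and 0.42 with S586A. With the replicate number as a block it was 0.37 with WT at rest and 0.32 with S586E, with 138 and 139 members higher than with vector, and these medians lie closer together than in the fit without it. WT at rest has no replicate 3, the number of the vector library that stands apart. Without replicate 3 of resting KO with vector it was 0.23 with WT and -0.04 with S586E, with 3 members called for S586E (0.0771% of all genes tested). Every WT library lay above every vector library at rest for 74 members (18.9% of kept genes) and under KCl for 21 (4.29%). S586E did so for 26 members (4.67%; 32 and 9.87% without replicate 3 of resting KO with vector, where WT gave 80 and 26.2%) and S586A for 42 (16.5%). Without replicate 3 of WT under KCl the count with WT under KCl was 105 (13% of kept genes), and without replicate 2 of S586A the count with S586A was 138 (31%). Vector libraries enter both the choice and these counts.

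Against NT, the gap that remained was called for few members with WT and for more with S586E. NT libraries helped choose the genes, so part of this gap is fixed by the choice, and the calls and counts are a description. At rest WT has 2 libraries and S586E has 3. Every WT library lay below every NT library at rest for 135 members (17.1% of kept genes) and under KCl for 70 (9.3%), S586E for 134 (26.7%) and S586A for 108 (16.3%; 109 and 22.7% without replicate 2 of S586A). Calls lower than NT numbered 1 with WT at rest (0.0287% of all genes tested), 5 with WT under KCl (0.124%), 22 with S586E (1.74%) and 4 with S586A (0.239%). Tns1, encoding tensin 1, which links integrins to actin, was called in all 4: it fell short of NT by a log2 fold change of -1.10 (SE 0.183, adjusted p 0.0177, edgeR) with WT at rest, -0.90 with WT under KCl, -1.15 with S586E and -1.13 with S586A. Tanc1 and Paqr8 were called with WT under KCl and with S586A, Bcan with WT under KCl and with S586E, and Plekhd1 with S586A. Calls with S586E included Pdgfra (-5.08), Col11a1 (-2.63), Map3k1 (-1.68), Ntsr2 (-1.52), Notch1 (-1.40), Mki67 (-2.77), Top2a (-2.80) and Nupr1 (-0.99). Tns1, Tanc1, Paqr8 and Plekhd1, like Gstm1, Dbi and Plcb3 elsewhere, were named after their values were seen. Without replicate 2 of resting NT no member was called with S586E, and without replicates 1, 2 or 3 of S586E there were 2, 7 or 10. Calls over all genes tested fell as well, from 583 in either direction to 3 without that NT library. Without replicates 1, 2 or 3 of S586E they were 64, 170 or 267. For WT under KCl, 0 to 2 members were called when a library was left out, where 1 to 9 of all genes tested were. Without replicate 1 of NT under KCl every WT library lay below NT for 128 members (19.3% of kept genes), against 71 (12.7%) without replicate 3 of WT under KCl.

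**Figure D2:**
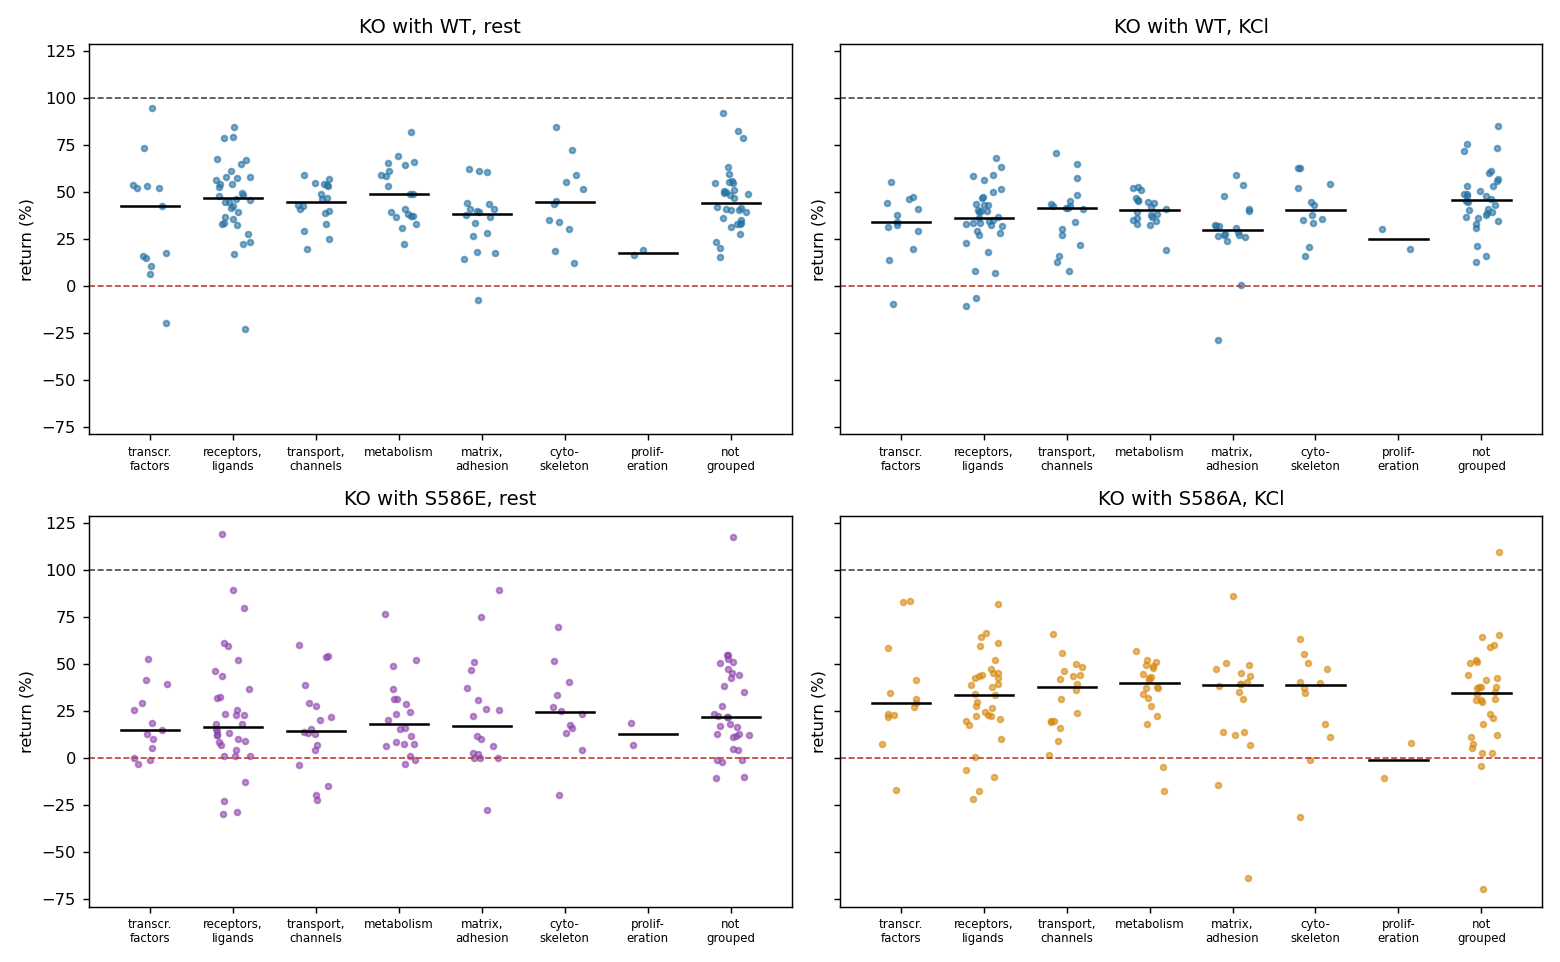
Each point is a member and the vertical axis its return in percent, where 0 (red dashes) is KO with vector and 100 (grey dashes) is NT in the same state. Black bars are medians of groups of genes by known role, with 1 panel per add-back. Medians with WT lie between 17.7% and 48.9% at rest, and those with S586E between 12.7% and 24.2%.

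Among transporters and junction proteins, Gja1 (ENSMUSG00000050953.10; GRCm38, chromosome 10, 56377330 to 56402513, plus strand), whose promoter is printed above, was at 42.9 and 48.8 CPM in resting NT, at 27.2, 26.9 and 7.42 CPM with vector, at 33.3 and 30.0 CPM with WT and at 16.4, 18.2 and 16.5 CPM with S586E. Every S586E library was thus below every WT library and also below replicates 1 and 2 with vector. Under KCl it was at 29.4 and 33.0 CPM in NT, 15.1, 20.9 and 11.8 CPM with vector, 22.1, 33.2 and 8.45 CPM with WT and 27.98 and 15.0 CPM with S586A, where add-back and vector libraries overlapped. Its return was 53.6% with WT at rest and -22.6% with S586E. Slc1a3 was at 110 and 142 CPM in resting NT, 99.7, 95.4 and 29.7 CPM with vector, 90.3 and 94.9 CPM with WT and 78.5, 90.1 and 93.0 CPM with S586E. Leaving aside replicate 3 with vector, its resting knockout libraries lay within 78.5 and 99.7 CPM whichever construct they carried. Slc38a3, a glutamine transporter, returned by 43.0% with WT at rest and by -3.85% with S586E, and Slc12a4, a potassium-chloride cotransporter, by 53.1% and -14.7%. Slco1c1, which carries thyroid hormone, returned by 46.6% with WT and 21.7% with S586E at rest, and Slco2a1, a prostaglandin transporter, by 46.4% and 39.0%. Slc15a2, a peptide transporter, returned by 32.9% with WT and 53.9% with S586E at rest, and Slc12a7, another potassium-chloride cotransporter, by 54.6% and 20.3%. Slc9a3r1 carries a solute carrier symbol but encodes a scaffold protein, and returned by 42.6% and 4.41%.

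Slco2a1 and Cyb5r3, a reductase of cytochrome b5 named after its values were seen, were among 3 members for which all add-back libraries lay above all vector libraries in all 4 comparisons (0.333% of kept genes). Kcnab3, a beta subunit of voltage-gated potassium channels, returned by 49.1% with WT and 54.3% with S586E at rest.

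Among receptors and ligands, Pdgfra (ENSMUSG00000029231.15; chromosome 5, 75152292 to 75198215, plus strand), the receptor that defines OPCs, was at 23.4 and 36.6 CPM in resting NT and at 1.08, 1.28 and 0.078 CPM with vector. It was at 2.60 and 2.19 CPM with WT and at 0.928, 0.67 and 1.03 CPM with S586E. Under KCl the NT libraries were far apart, at 1.68 and 15.6 CPM, and vector libraries lay at 1.11, 0.669 and 1.01 CPM, WT libraries at 3.97, 3.93 and 0.614 CPM and S586A libraries at 2.69 and 1.22 CPM. All resting knockout libraries were below both NT libraries, and under KCl the lower NT library lay within the range of the WT libraries. Its return was 22.1% with WT at rest and 1.23% with S586E. Ntsr2, a neurotensin receptor of astrocytes, went from 12.3 and 17.1 CPM in resting NT to 5.65, 4.39 and 2.57 CPM with vector, and stood at 6.76 and 9.82 CPM with WT and 5.26, 4.02 and 5.83 CPM with S586E. Gpr37l1, an orphan receptor of astrocytes, returned by 58.1% with WT at rest and 25.5% with S586E, S1pr1, a sphingosine-1-phosphate receptor, by 32.4% and -22.7%, and Ednrb, the endothelin B receptor, by 44.8% and 18.0%.

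Growth factor pathway members differed among themselves. Egfr, which binds epidermal growth factor, returned by 27.5% with WT and 0.96% with S586E at rest, and by 22.7% with WT and 0.53% with S586A under KCl. Fgf1, a fibroblast growth factor, returned by 39.0% with WT and 79.7% with S586E, and the decoy-type receptor Fgfrl1 by 23.4% and 32.4%. Tgfb2, a transforming growth factor, and its receptor Tgfbr2 returned by 47.7% and 65.0% with WT at rest and by 32.0% and 46.4% with S586E. Igfbp2, which binds insulin-like growth factors, returned by 44.7% and 36.6%. Notch1, the receptor of a pathway that maintains progenitors and favours glia, was at 22.1 and 39.6 CPM in resting NT, 12.3, 14.9 and 5.60 CPM with vector, 14.7 and 16.4 CPM with WT and 9.96, 12.2 and 12.2 CPM with S586E, so S586E libraries lay below WT and within the vector range. Icosl, a costimulatory ligand, returned by 61.0% with WT and 61.4% with S586E. Csf1r, the receptor that microglia need, was at 6.79 and 5.16 CPM in resting NT, 1.84, 2.27 and 3.35 CPM with vector, 7.14 and 3.41 CPM with WT, and 4.29, 4.74 and 3.78 CPM with S586E, while Tmem119 stayed at or below 0.124 CPM in every DIV18 library.

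Transcription factor members included determinants of glial lineages. Sox9, which specifies astrocytes, was at 36.8 and 54.0 CPM in resting NT, 27.0, 27.0 and 8.89 CPM with vector, 28.1 and 35.3 CPM with WT, and 19.0, 23.2 and 20.3 CPM with S586E. S586E libraries were below both WT libraries and below vector replicates 1 and 2. Olig1 and Olig2, which specify oligodendrocyte lineage cells, differed in return at rest. Olig1 returned by 6.20% with WT and 25.4% with S586E, and was at 27.5 and 43.5 CPM in NT, 12.2, 5.13 and 2.73 CPM with vector, 9.36 and 5.56 CPM with WT and 13.7, 6.75 and 10.8 CPM with S586E. Its values with WT and with S586E both overlapped those with vector. Olig2 returned by -19.95% with WT at rest, -3.31% with S586E and 40.7% with WT under KCl. Sox6 returned by 10.5% with WT and 0.20% with S586E at rest, and Sox21, among the 3 members with the lowest mean return with WT over both states, by 17.4% at rest and -9.49% under KCl. Emx2, a homeobox factor of the dorsal telencephalon, stood at 3.88 and 6.64 CPM in resting NT and returned by 15.9% with WT and 18.6% with S586E. Zfp36l2, which binds and destabilizes mRNAs, returned by 27.8% and -0.97%.

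In metabolism, Apoe, the main apolipoprotein of astrocytes, was at 470 and 750 CPM in resting NT, 245, 283 and 84.2 CPM with vector, 321 and 376 CPM with WT, and 203, 228 and 224 CPM with S586E. Both WT libraries exceeded all vector libraries, and all S586E libraries were below vector replicates 1 and 2. Aldoc was at 229 and 295 CPM in NT, 157, 155 and 58.0 CPM with vector, 194 and 207 CPM with WT and 133, 155.6 and 126 CPM with S586E. WT libraries again exceeded all vector libraries, while S586E libraries lay within the range of the vector libraries. Its return was 64.3% with WT and 15.3% with S586E. Aldh1l1, a folate enzyme used to mark astrocytes, returned by 58.7% and 36.8%. Idh2, a mitochondrial isocitrate dehydrogenase at the edge of the choice, returned by 37.3% and 1.20%.

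Matrix and adhesion members included proteoglycans of perineuronal nets. Bcan (brevican) was at 61.4 and 68.0 CPM in resting NT, 31.7, 30.6 and 26.0 CPM with vector, 37.4 and 43.8 CPM with WT and 36.9, 35.5 and 46.2 CPM with S586E, so WT and S586E libraries overlapped each other and exceeded all vector libraries. Acan (aggrecan) returned by 40.9% with WT and 46.6% with S586E. Col11a1, a fibrillar collagen chain, had the lowest mean return with WT over both states, with 13.99% at rest and -28.6% under KCl, and stood at 0.903, 2.01 and 1.6 CPM with S586E against 3.11, 2.53 and 1.64 CPM with vector at rest. Ptprz1, a receptor phosphatase and proteoglycan of glia, returned by -7.50% with WT at rest and 23.6% under KCl. Under KCl, the matrix glycoprotein Emilin2 returned by 28.7% with WT and 86.1% with S586A, the integrin subunit Itga6 by 31.6% and -14.3%, and the protease Htra1 by 40.0% and 45.3%. Cdhr1, a cadherin-related protein of photoreceptors, returned at rest by 39.4% with WT and 89.5% with S586E. The highest mean return with WT was in Nupr1, a small stress-response chromatin protein (92.1% at rest and 84.9% under KCl), Nrros, a protein that handles latent TGF-beta (82.5% and 73.4%), and Csrp1, a LIM protein of the actin cytoskeleton (84.6% and 53.9%). Vim, the intermediate filament of glia and progenitors, returned by 55.3% with WT and 16% with S586E at rest.

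The proliferation genes Mki67 and Top2a were low in every knockout group. Mki67 was at 8.93 and 19.5 CPM in resting NT, 1.02, 0.40 and 1.87 CPM with vector, 2.14 and 1.66 CPM with WT and 2.48, 1.29 and 2.37 CPM with S586E. Its NT libraries under KCl stood at 2.10 and 11.9 CPM, the lower of them inside the range of the WT libraries (0.782 to 3.04 CPM). Returns with WT were 16.3% and 19.0% at rest for Mki67 and Top2a.

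**Figure D3:**
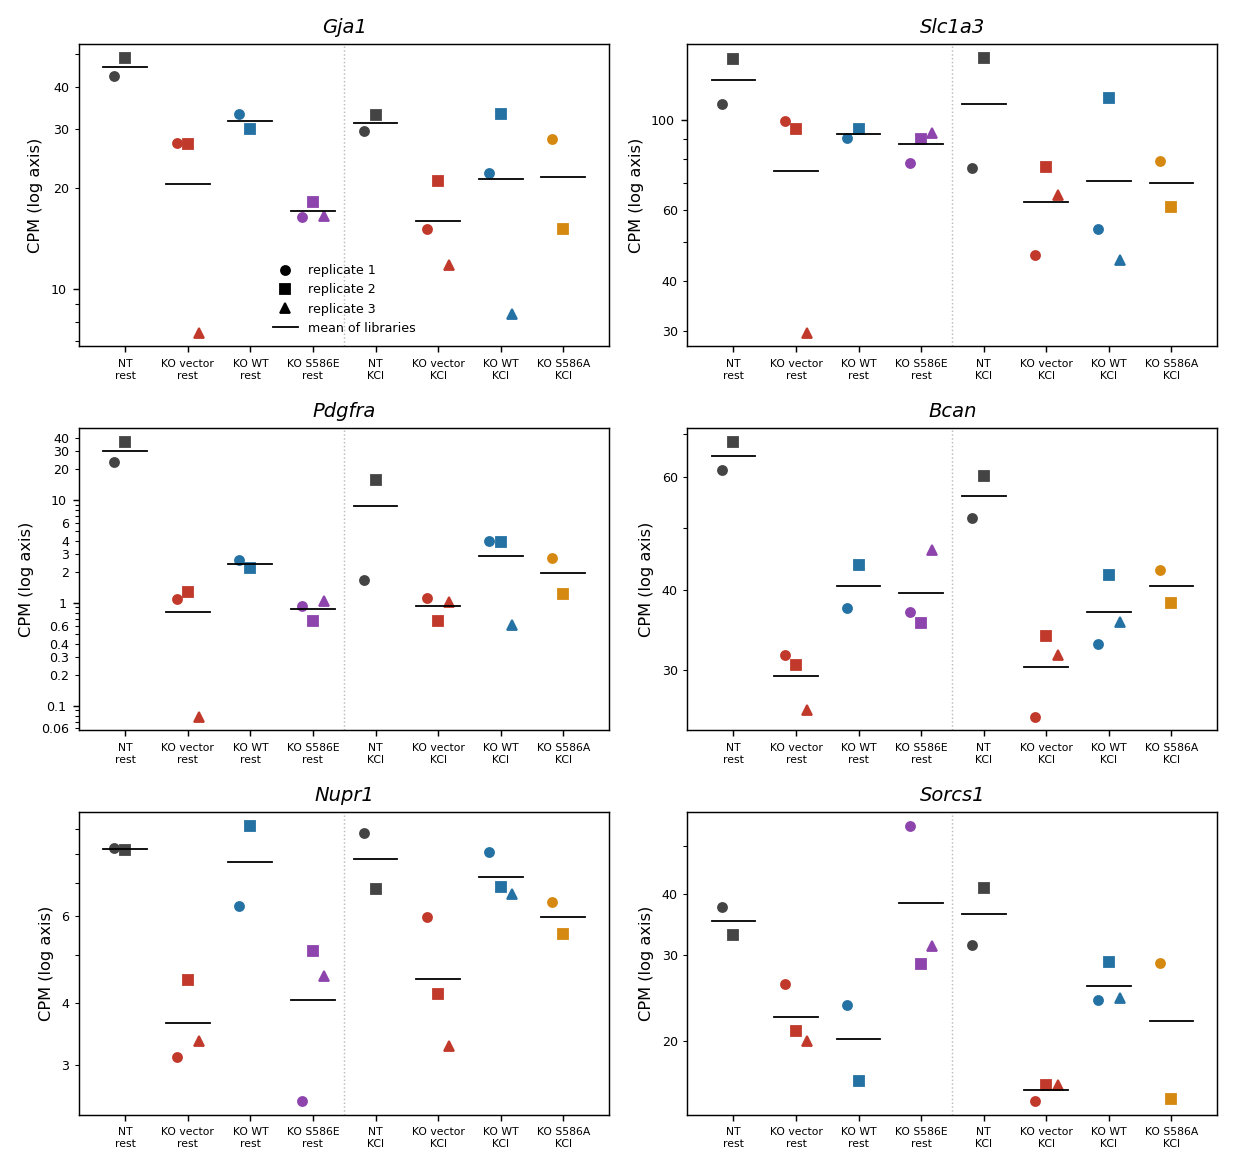
CPM (log axis) of 6 members in each DIV18 library, with symbols for replicate numbers and bars for group means, resting groups left of the dotted line and KCl groups right of it. Gja1 and Slc1a3 are low in replicate 3 of resting KO with vector, Bcan is between 26.0 and 31.7 CPM in that group, and Sorcs1 is higher with S586E (28.8 to 55.0 CPM) than with WT at rest (16.6 to 23.7 CPM).

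S586E was then compared with WT at rest, both groups outside the choice of genes. No member was called (edgeR, adjusted p under 0.05), and neither was any other gene (0% of 20940 tested). At an unadjusted p under 0.05 there were 8 members among 2696 genes. The members' median log2 fold change was -0.20, against 0.01 over all genes tested, and 108 of 149 members were lower with S586E, whereas 51.0% of all genes tested were higher. For 68 members every S586E library lay below every WT library (30.9% of kept genes) and for 5 above (11.8%). DESeq2 called 1 member, Sorcs1 (1.52% of all genes tested), and a fit of only these groups called 3, Apoe, Gja1 and Gstm1 (0.232%). All 13 astrocyte markers among the members were lower with S586E (median -0.40), and 11 of them without overlap of libraries. On the full list of 30 astrocyte markers 19 were lower, these 13 among them, with a median of -0.11, so most markers that are not members were higher. The 16 astrocyte markers other than Slc1a2 that are not members summed to 977 to 1073 CPM with S586E and 908 to 1082 CPM with WT, ranges that overlap. Slc1a2 itself was higher with S586E (1036 to 1217 CPM) than with WT (829 to 976 CPM). The 4 OPC members had a median of 0.23, and 3 of them were higher. The members' median stayed between -0.24 and -0.13 when any library of these groups was left out, but with the replicate number as a block it was -0.003, with 73 members higher and 76 lower. The labels do not say whether libraries with the same replicate number in different groups came from the same embryo.

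The members that differed most between these constructs did so in both directions. Sorcs1 (ENSMUSG00000043531.16; chromosome 19, 50143299 to 50678646, minus strand), a sorting receptor of the VPS10 family, was at 55.0, 28.8 and 31.2 CPM with S586E and at 23.7 and 16.6 CPM with WT, against 37.5 and 32.8 CPM in NT and 26.1, 21.0 and 19.97 CPM with vector (log2 fold change 1.00, SE 0.275, adjusted p 0.142, edgeR). S586E libraries reached or exceeded the lower NT value in 1 of 3 cases. Nupr1 was at 2.54, 5.10 and 4.55 CPM with S586E, where vector libraries ranged from 3.11 to 4.46 CPM, and at 6.29 and 9.12 CPM with WT (-0.86, SE 0.262, adjusted p 0.190). Slc12a4 was at 9.10, 11.6 and 9.21 CPM with S586E and at 16.3 and 24.0 CPM with WT (-0.95, adjusted p 0.262). Clic1 (-1.09, adjusted p 0.250), an intracellular chloride channel protein, Gas1 (-1.02, adjusted p 0.268), a hedgehog coreceptor, and Cd9 (-0.84, adjusted p 0.382), a tetraspanin, were lower in mean, and Spata13 (0.66, adjusted p 0.366) higher. The members Sorcs1, Clic1, Gas1, Cd9 and Spata13 were named after their values were seen.

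S586A was compared with WT under KCl in the same way. No member was called and none reached an unadjusted p under 0.05, while 1824 of all genes did and 0% were called. The members' median was -0.02, as over all genes (-0.02), and 70 of 149 were higher. For 2 members, Cdhr1 and Emilin2, every S586A library lay above every WT library (11.5% of kept genes), and for 2, Nupr1 and Plcb3, below (11% of kept genes). These values hang on the libraries that stand apart. Without replicate 3 of WT the median was -0.20 and 120 members were lower, and without replicate 2 of S586A it was 0.21 and 120 were higher. Members with every S586A library below every WT library then numbered 37 (19.2% of kept genes) without replicate 3 of WT, and those above it 30 (24.6%) without replicate 2 of S586A.

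Few members passed the test for an effect of 30 min of depolarization. In WT cultures at DIV18 none was called (0.043% of genes tested were) or reached an unadjusted p under 0.05. The median was -0.25 with 130 members lower under KCl, and it was -0.05 with 94 lower without replicate 3 of WT under KCl. At DIV7, where 17% of 19822 genes tested were called, 14 of the 148 members tested were (Lcn2 was too low to test), 7 higher and 7 lower, and the median was -0.07. Slc15a2 (log2 fold change 1.21, SE 0.213, adjusted p 0.0109, edgeR), Nrros (1.14) and Zfp36l2 (1.01) rose most, and Map3k1, a kinase of the MAP kinase cascade (-1.09, SE 0.151, adjusted p 0.00469), F3 (-0.87) and Gm14288 (-0.58) fell most. The call for Gm14288 was lost when length offsets were used (edgeR, adjusted p 0.0762), by DESeq2 (adjusted p 0.102) and without 3 of the 4 libraries in turn (edgeR, adjusted p 0.0672 to 0.165), that for Map3k1 under length offsets (edgeR, adjusted p 0.202), and that for Slc15a2 without replicate 1 of resting DIV7 (edgeR, adjusted p 0.0592). Sox9 rose by 0.59 and Vim by 0.21, while Slc38a3 fell by 0.51, Idh2 by 0.51 and Slc1a3 by 0.22 on the log2 scale.

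**Figure D4:**
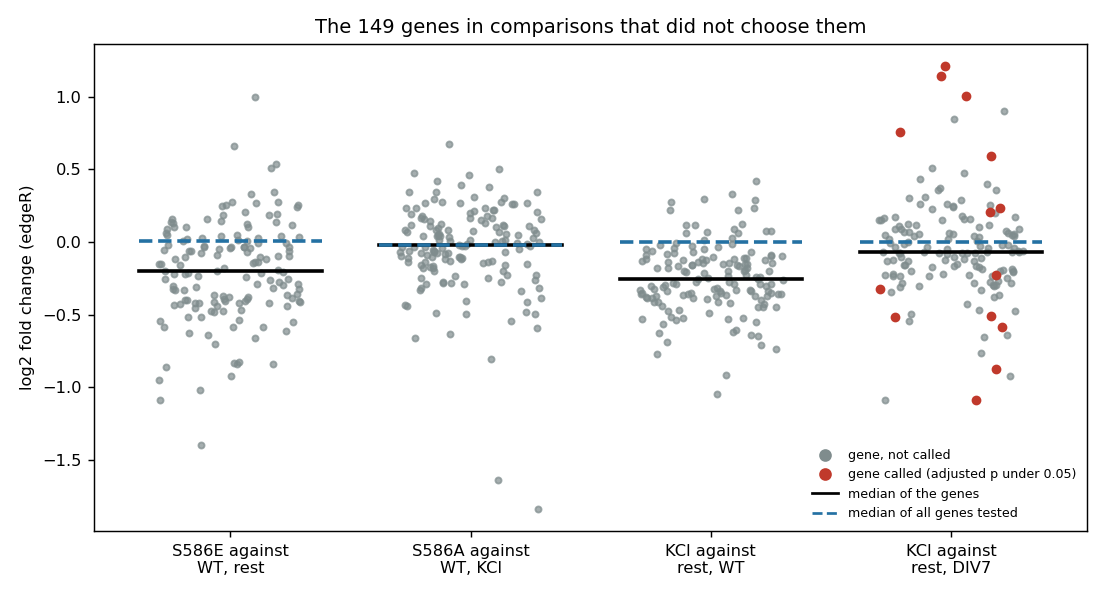
Each point is a member and the vertical axis its log2 fold change in a comparison between groups that did not choose the genes. Red points passed an adjusted p under 0.05, black bars are medians of the members and blue dashes medians of all genes tested. The members' medians are -0.20, -0.02, -0.25 and -0.07 from left to right, and calls appear only at DIV7.

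Members were low at DIV7. Of 149, 135 had a lower mean in resting DIV7 than in resting NT at DIV18, against 49.7% of kept genes, with a median difference of -1.28 on the log2(CPM + 1) scale (0.01 over kept genes), and 126 lay below without overlap (43.4% of kept genes). Under 1 CPM at DIV7 were 12 members (8.05%, against 0.955% of kept genes). Gpr37l1 stood at 0.22 and 0.38 CPM there, against 11.3 and 15.2 CPM in resting NT, and Pdgfra at 0.48 and 0.38 CPM. Ptprz1, at 229 and 262 CPM against 177 and 177 CPM, and Itga6 were among the 14 members higher at DIV7. Age, RNA selection and guide differ together between these groups and cannot be told apart, and NT libraries also took part in the choice.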

How the data were processed

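RNA sequencing of 24 libraries was used. The authors deposited, per the file headers, a kallisto-style table per library with the estimated count, TPM and effective length of each transcript; FastQC, cutadapt and kallisto are named in the submitters' processing notes, and build and annotation are not given in the sources used here. Of 142552 transcripts, 141429 matched GENCODE M21 (GRCm38); the rest held at most 0.467% of counts and were left out. For each gene the estimated counts of its transcripts were added, then rounded for tests. TPM, deposited by the authors, served only to compare levels between genes; deposited effective lengths (bases) gave the offsets of 1 alternative.

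Tests used edgeR 4.0.16 (R 4.3.3; quasi-likelihood, TMM, filterByExpr, two-sided, Benjamini-Hochberg over all genes, call at adjusted p under 0.05), with the 20 DIV18 libraries in 8 groups together (all 149 members passed the filter) and the 4 DIV7 libraries apart. The script was tested on simulated data. Alternatives were DESeq2 1.42.0, median-of-ratios scaling, no filter, a replicate block, effective-length offsets, only the groups compared, and leaving out each library. In the main fits a p-value set a difference against the spread between libraries within groups. That spread was estimated over all 20 DIV18 libraries, or over the 4 DIV7 libraries, and not from the compared groups alone at DIV18.

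Members and lists were chosen with earlier results of these data known; roles were assigned after the members were known. Named were Smarcc2, members on fixed lists, the 10 deepest, 3 each side of the limit, the 3 highest and 3 lowest mean returns with WT, members called in comparisons outside the choice, and the 3 largest rises and falls at DIV7; others are marked. Same-numbered libraries deviated together in some comparisons (r from 0.171 to 0.382 in S586E against vector, 0.178 to 0.348 in WT against vector under KCl) and little or not at all in others. The r was 0.166 in WT against vector at rest, 0.157 in S586E against WT and 0.101 at DIV7. It was 0.018 in S586A against WT, -0.010 in S586A against vector and -0.105 in KCl against rest with WT. Comparisons with NT gave 0.055 to 0.291. The main fits, the returns and the counts without overlap did not pair them, and the replicate block was run only as an alternative. Some members are not reported here by name.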

Additional observations from a re-analysis of the deposited data

How the results depend on the processing

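Under 4 other settings of the rule and without each library in turn (the latter chosen after seeing the data), 110 to 138 of the 149 genes remained when a library was left out. Median return without each library ran from 29.6% to 52.0% (WT, rest), 15.3% to 59.6% (WT, KCl), -8.03% to 32.1% (S586E; it reversed to -8.03% without replicate 3 of resting KO with vector) and 5.56% to 57.3% (S586A), and with TMM-scaled CPM it was 22.1% for S586E. For KO with vector against NT, the 79 calls at rest became 146 with no filter, 51 with length offsets, 27 with only the groups compared and 16 to 72 without a library, and the 55 under KCl became 145, 34, 103 and 13 to 35. Over all genes these settings called 2016, 684, 225 and 100 to 1031 at rest, and 1437, 279, 708 and 37 to 241 under KCl. Filtered fits tested 17447 to 22549 genes at DIV18 and 19822 to 21013 at DIV7. Fits with no filter tested 41147 and 39819. With no filter, the members' calls rose to 46 and 23 (WT against vector, rest and KCl), 23 (S586E against vector), 38 (S586A against vector), 59 and 92 (WT against NT), 109 (S586E against NT), 80 (S586A against NT), 18 (S586E against WT), 2 (S586A against WT), 6 (KCl with WT) and 26 (KCl at DIV7). Over all genes they were 604, 127, 315, 531, 378, 704, 1582, 653, 782, 225, 196 and 4896 in that order. With DESeq2 the members' calls were 2 (WT against vector, rest), 6 (S586E against vector), 2 (S586A against vector), 8 and 9 (WT against NT), 42 (S586E against NT), 19 (S586A against NT), 1 (S586E against WT) and 9 (DIV7). Over all genes DESeq2 called 178, 52, 215, 117, 296, 1107, 345, 319 and 2217 in that order. With the replicate block the members' calls were 2 (S586E against vector), 6 (WT against NT, rest), 19 (S586A against NT) and 32 (DIV7), where 14, 65, 310 and 5857 of all genes were called. The block changed no other count of members by over 1.5 times. It moved the members' median log2 fold change from 0.48 to 0.37 and 0.26 to 0.32 (WT and S586E against vector, rest), from 0.42 to 0.26 (S586A against vector, where 139 members higher became 125), from -0.20 to -0.003 (S586E against WT), from -0.02 to -0.14 (S586A against WT) and from -0.25 to -0.13 (KCl with WT). With length offsets the members' calls were 0 and 3 (WT against NT, rest and KCl), 8 (S586E against NT) and 1 (S586A against NT), and with only the groups compared 5, 0, 86 and 0 in that order and 3 for S586E against WT. Over all genes length offsets gave 22, 13, 168 and 32, and only the groups compared 17, 5, 632 and 12, with 43 for S586E against WT. Leaving out a library gave 0 to 3 members (S586E against vector), 0 to 1 and 0 to 2 (WT against NT), 0 to 17 (S586E against NT), 0 to 4 (S586A against NT), 7 to 23 (DIV7) and 0 in the other comparisons. Over all genes it gave 2 to 16, 2 to 17, 1 to 9, 3 to 539, 4 to 75 and 1459 to 2630 in that order, and 0 to 23 in the others. The cause was not tested. Groups of 2 or 3 libraries limit precision, and members under about 10 CPM in NT rest on few counts.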
